A study of Homo sapiens with 22 samples.

Results

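The collagen genes were described in CUT&RUN peak lists of A673 and CHLA10, established human Ewing sarcoma cell lines. They were taken by name alone, as protein-coding genes on chromosomes 1 to 22 whose symbol is COL, a number, A and a number. This gave 42 of 19122 protein-coding genes, and the rule uses no measured value. CUT&RUN tethers micrococcal nuclease to antibody-bound chromatin and sequences the fragments that it cuts free. The title of the series names HOXD13, a homeodomain transcription factor, and the fusion protein EWS-FLI1 as its subjects. Each line had 1 HOXD13 library, and 2 libraries for each of 4 histone marks, H3K4me3, H3K27ac, H3K4me1 and H3K27me3, each with 1 deposited peak list. Cells labelled shNS gave the 16 mark libraries of both lines, and the 2 HOXD13 libraries do not carry that label. A673 grew in RPMI medium, and CHLA10 grew in IMDM with more serum and added insulin, transferrin and selenium, so line and medium cannot be told apart. The 4 IgG libraries were not analysed here.

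Of the Ewing sarcoma markers checked, 6 of 6 on these chromosomes had an H3K4me3 peak within 1 kb of a gene boundary in all libraries of both lines (NKX2-2, CCND1, STEAP1, PRKCB, LIPI and IL1RAP). NKX2-2 also had H3K27me3 at an end in both CHLA10 libraries. The haematopoietic markers PTPRC and CD3E, the hepatic marker ALB and the epithelial marker CDH1 were not marked so in either line. SPI1 and EPCAM had one in each CHLA10 library and none in A673. The lists hold between 2060 peaks (CHLA10 HOXD13) and 104244 peaks (A673 H3K4me1 replicate 1) on chromosomes 1 to 22. They are unequal between lines for HOXD13, with 7047 peaks in A673, and for H3K4me1, with 42268 peaks in A673 replicate 2 against 22838 and 20467 in the CHLA10 libraries. Read counts are not part of the lists, so the depth of a peak is unknown. An exact permutation test of 2 libraries against 2 has a smallest possible p of 0.33, and HOXD13 has 1 library a line. Every comparison between the lines is therefore a description of these libraries, with no test.

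Collagens are extracellular proteins built from chains that wind into a triple helix. The fibrillar types, led by types I, III and V, form the fibrils of connective tissue and bone, type IV forms the sheet-like network of basement membranes, and type VI forms beaded filaments around cells. FACIT collagens sit on the surface of fibrils, transmembrane collagens span the cell membrane, and multiplexins lie between basement membranes and the underlying matrix. Promoters that are in use or ready for use carry H3K4me3, and active regulatory DNA of any kind carries H3K27ac. H3K4me1 is typical of enhancers, and the Polycomb complex lays down H3K27me3 on silenced genes.

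The promoter sequences show what the collagen genes with and without H3K4me3 look like. RefSeq promoter windows (GRCh38.p14) were given for 30 of the 42 genes, with 41 listed starts, and the 250 bases before each start were read. The first sequence is shown because its window was the only one of the 41 with a HOXD13 peak, in A673, and its capitals mark the 64 bases under that peak. In the other sequences the capitals mark CpG dinucleotides, the usual feature of promoters that carry H3K4me3. COL17A1 encodes the transmembrane collagen of hemidesmosomes, which anchor epithelial cells (chr10:104085881-104086130, minus strand). COL12A1 (chr6:75206054-75206303, minus strand), COL5A1 (chr9:134641553-134641802, plus strand) and COL25A1 (chr4:109302659-109302908, minus strand) had H3K4me3 in all 4 libraries. COL9A2 (chr1:40317287-40317536, minus strand), COL11A1 (chr1:103108523-103108772, minus strand) and COL6A3 (chr2:237414165-237414414, minus strand) had it in none within 1 kb of the start. For COL11A1 this rests on the window, since an H3K4me3 region called in every library lay 1.01 kb from its start.
COL17A1: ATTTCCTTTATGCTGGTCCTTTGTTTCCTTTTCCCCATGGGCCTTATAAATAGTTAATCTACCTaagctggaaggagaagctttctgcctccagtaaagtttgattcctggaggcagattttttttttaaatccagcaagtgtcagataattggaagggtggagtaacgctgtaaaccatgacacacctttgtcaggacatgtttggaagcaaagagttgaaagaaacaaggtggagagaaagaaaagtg
COL12A1: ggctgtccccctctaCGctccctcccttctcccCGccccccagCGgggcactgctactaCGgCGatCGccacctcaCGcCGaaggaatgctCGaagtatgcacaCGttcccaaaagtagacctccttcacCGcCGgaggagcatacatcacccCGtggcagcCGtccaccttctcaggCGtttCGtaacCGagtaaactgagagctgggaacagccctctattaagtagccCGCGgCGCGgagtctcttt
COL5A1: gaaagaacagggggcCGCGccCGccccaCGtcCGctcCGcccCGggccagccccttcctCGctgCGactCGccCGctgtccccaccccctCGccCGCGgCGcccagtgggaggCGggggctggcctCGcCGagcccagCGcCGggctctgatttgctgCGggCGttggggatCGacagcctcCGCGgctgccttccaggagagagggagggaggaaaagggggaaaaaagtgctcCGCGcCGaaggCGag
COL25A1: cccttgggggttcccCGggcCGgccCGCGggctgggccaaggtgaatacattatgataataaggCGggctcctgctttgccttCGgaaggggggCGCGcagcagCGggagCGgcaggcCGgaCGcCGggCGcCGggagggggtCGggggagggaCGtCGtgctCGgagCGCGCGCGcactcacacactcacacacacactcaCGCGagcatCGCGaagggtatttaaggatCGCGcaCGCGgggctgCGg
COL9A2: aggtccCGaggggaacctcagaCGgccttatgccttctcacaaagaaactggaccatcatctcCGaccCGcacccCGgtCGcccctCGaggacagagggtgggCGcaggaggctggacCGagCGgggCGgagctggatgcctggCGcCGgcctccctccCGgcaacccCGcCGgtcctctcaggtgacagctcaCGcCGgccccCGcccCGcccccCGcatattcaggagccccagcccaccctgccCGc
COL11A1: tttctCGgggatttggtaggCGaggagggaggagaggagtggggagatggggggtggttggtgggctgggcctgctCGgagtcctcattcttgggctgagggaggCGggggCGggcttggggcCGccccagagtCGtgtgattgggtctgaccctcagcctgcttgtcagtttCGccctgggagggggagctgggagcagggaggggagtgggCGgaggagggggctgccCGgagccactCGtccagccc
COL6A3: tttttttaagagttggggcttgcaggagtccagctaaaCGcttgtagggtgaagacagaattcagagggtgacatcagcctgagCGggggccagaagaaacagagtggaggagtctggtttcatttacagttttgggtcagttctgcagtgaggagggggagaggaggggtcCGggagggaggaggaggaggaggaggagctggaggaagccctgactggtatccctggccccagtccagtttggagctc

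Over the 250 bases, COL12A1 held 21 CpG, COL5A1 29 and COL25A1 32, against 3 in COL6A3, 11 in COL11A1 and 1 in COL17A1. COL9A2, with 22 CpG, carried no H3K4me3 although its count lay within that of the marked windows. The median was 25.0 CpG in the 15 windows (14 genes) with H3K4me3 in all 4 libraries and 7.5 in the 20 windows (12 genes) with none. Of those 12 genes, COL18A1 and COL21A1 had H3K4me3 in some libraries at another listed start. Over all protein-coding genes with a window the medians were 22 and 3. COL8A2 (35 CpG) and 1 of the 4 windows of COL11A2 (34 CpG) had none either, and COL19A1, with 6 CpG, had it in all 4 libraries. The COL17A1 window was 2.44% of the 41 windows, beside 0.978% of all 21155 windows with an A673 HOXD13 peak. No CHLA10 HOXD13 peak lay over any of the 41 windows, beside 0.170% of all 21155 windows. A count of 0 in 41 windows allows a share of up to 7.32%. The motifs searched on both strands were rare. CAATAAA, a HOX13-type sequence, occurred in 1 window (COL28A1, 2.44% of windows, beside 2.71% of all windows), and TAATTA, a general homeodomain sequence, in 1 window (COL10A1, 2.44%, beside 3.20%). CTCGTAAA, another HOX13-type sequence, was in 0.118% of all windows, GGAAGGAA, a repeat of the core that EWS-FLI1 binds, was in 3.12%, and neither was in a collagen window.

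Collagen genes are long, with a median span of 133 kb (range 16.8 to 494 kb), against 24.5 kb over all protein-coding genes, so peaks inside them were counted apart from peaks at their ends. A gene end covered 1 kb to either side of a gene boundary, and a gene counted as marked when a peak overlapped that window in both libraries of a line. H3K4me3 marked 23 collagen genes (54.8%) in A673 and 23 in CHLA10, a smaller share than the 64.9% and 64.4% of all genes. H3K27ac marked 2 (4.76%) in A673 and 4 (9.52%) in CHLA10, beside 7.89% and 18.1% of all genes. H3K4me1 marked 6 (14.3%) and 1 (2.38%), beside 9.94% and 1.14%. H3K27me3 marked 12 collagen genes (28.6%) in A673 and 7 (16.7%) in CHLA10, beside 12.1% and 10.6% of all genes. Single libraries moved some of these counts: H3K27ac marked 9 genes in A673 replicate 2 alone, 6 in A673 replicate 1 alone and 8 in CHLA10 replicate 1 alone, and H3K4me1 marked 14 in A673 replicate 1 alone and 3 in CHLA10 replicate 1 alone. Inside the gene, H3K4me3 was found in 26 and 27 collagen genes (68.7% and 69.1% of all genes), H3K27ac in 28 and 22 (36.3% and 31.3%), H3K4me1 in 32 and 22 (41.3% and 17.7%), and H3K27me3 in 17 and 11 (16.8% and 14.3%), with A673 given first. Per base of gene span, H3K27me3 covered 3.83% and 6.24% of the collagen genes in A673 and 3.05% and 3.07% in CHLA10, below the 4.72% and 6.37% and the 5.74% and 5.95% of all protein-coding genes. H3K27ac covered 1.33% and 1.16% in A673 and 1.29% and 1.08% in CHLA10, beside 1.33%, 1.05%, 1.32% and 1.03%.

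**Figure D1:**
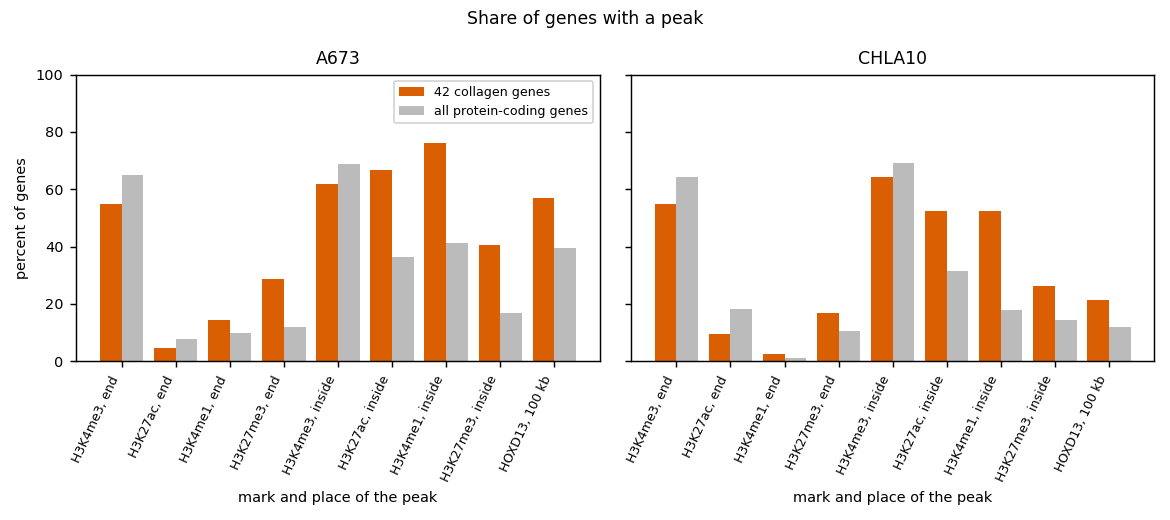
Percent of genes with a peak in both libraries of a line (1 library for HOXD13), for the 42 collagen genes (orange) and all 19122 protein-coding genes (grey), with the mark and the place of the peak on the horizontal axis. The orange bars are above the grey ones for H3K27me3 at both places and for HOXD13, and below them for H3K4me3 at the gene ends.

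Read together, the promoter mark H3K4me3 and the Polycomb mark H3K27me3 placed the collagen genes differently in the 2 lines. H3K4me3 in both libraries with H3K27me3 in neither was found at 14 collagen genes in A673 (57.4% of all genes) and 20 in CHLA10 (59.9%). Both marks, at either end of the gene, were found at 8 collagen genes in A673, which is 19.0% of them beside 5.78% of all genes, and at 3 in CHLA10, 7.14% beside 2.89%. H3K27me3 alone was found at 4 in A673 (5.76% of all genes) and 3 in CHLA10 (7.05%), and neither mark at 10 in each line (24.8% and 23.5%). The other genes had a mark in 1 library of the line. COL2A1, 1 of the 4 with H3K27me3 alone in A673, had H3K4me3 farther inside the gene, overlapping the same H3K27me3 peaks. The 8 genes with both marks in A673 were COL4A3, COL4A4, COL6A5, COL6A6, COL12A1, COL14A1, COL15A1 and COL19A1. At COL19A1 they lay at opposite ends, H3K4me3 at the start and H3K27me3 at the other end, and at the other 7 they lay at the same end. In CHLA10 they were COL12A1, COL14A1 and COL15A1, which carried both marks in all 4 libraries of each.

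Collagen genes marked at an end in both libraries of one line and neither of the other were counted next. For H3K4me3 there was 1 in A673 only, COL6A5 (1.98% of all genes), and 0 in CHLA10 only (1.88%). For H3K27ac there were 0 in A673 only (2.31%) and 2 in CHLA10 only, COL1A2 and COL5A2 (8.50%). The COL5A2 peak lay at an end shared with the gene WDR75. For H3K4me1 there were 5 in A673 only, COL5A3, COL7A1, COL8A1, COL8A2 and COL16A1 (7.96%), and 0 in CHLA10 only (0.272%). For H3K27me3 there were 6 in A673 only, COL2A1, COL4A3, COL4A4, COL6A3, COL19A1 and COL24A1, which is 14.3% of the collagen genes beside 4.00% of all genes. In CHLA10 only there were 2, COL20A1 and COL22A1 (4.76% beside 2.67% of all genes). COL4A3 and COL4A4 share 1 such peak, so these are not separate observations. Leaving out CHLA10 replicate 2 gave 4 genes with H3K4me3 in A673 only, and leaving out any 1 of the 4 libraries gave between 1 and 3 in CHLA10 only. For H3K27ac in A673 only the count was 7 without A673 replicate 1 and 1 without A673 replicate 2 or CHLA10 replicate 1. For H3K4me1, leaving out A673 replicate 2 gave 13 in A673 only, and leaving out CHLA10 replicate 2 gave 2 in CHLA10 only.

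**Figure D2:**
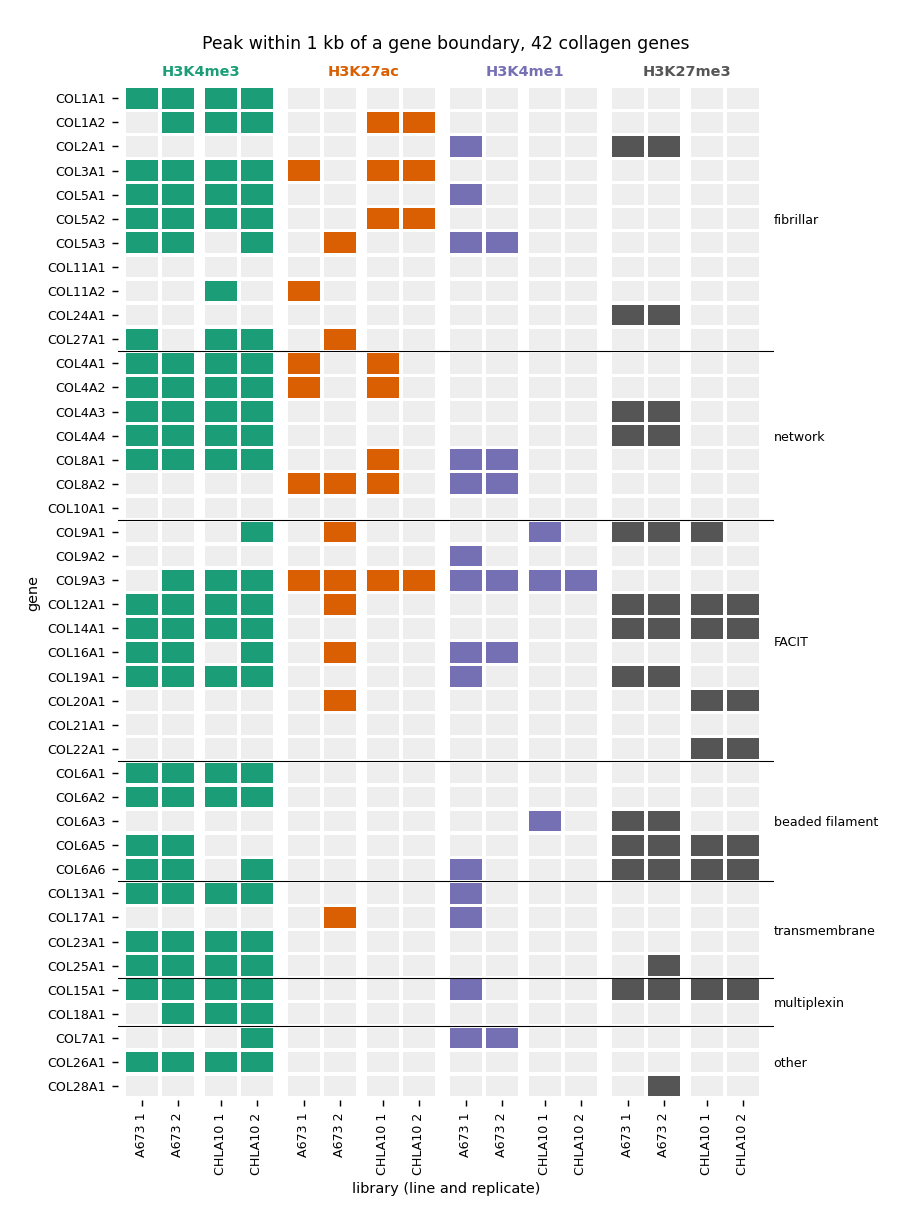
Peaks within 1 kb of a boundary of each of the 42 collagen genes (rows, grouped by structural class) in the 16 mark libraries (columns). A coloured or dark cell is a peak and a light grey cell is none; H3K4me3 fills 23 rows in both libraries of each line, and H3K27me3 fills 12 rows in A673 and 7 in CHLA10.

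The 11 fibrillar genes held 3 of the 4 collagen genes with H3K27ac at an end in CHLA10, COL1A2, COL3A1 and COL5A2. Those 4 are 9.52% of the collagen genes, beside 18.1% of all genes. The COL5A2 peak lay at an end shared with WDR75, so it cannot be assigned to COL5A2 alone. COL1A2, which encodes the α2 chain of type I collagen, had H3K4me3 peaks with a fold enrichment of 10.5 and 17.1 in the CHLA10 libraries and of 4.22 in A673 replicate 2, and no peak in A673 replicate 1. H3K27ac at its end, at a fold of 5.32 and 4.14, was in the CHLA10 libraries only, and inside the gene A673 replicate 1 had 1 H3K27ac peak, at a fold of 3.06. Its partner COL1A1, the α1 chain of type I collagen, had H3K4me3 in every library, at a fold of 38.8 and 16.1 in A673 and of 11.9 and 11.2 in CHLA10, and no H3K27ac at its ends. The fold is the authors' value for the peak, and its median over the whole H3K4me3 list was 23.8 and 21.3 in A673 and 13.6 and 12.8 in CHLA10, so folds were not compared between lines. A rank is given instead, the percent of peaks of the same list with an equal or lower −log10 q, where q is the authors' adjusted p for the peak. It places a peak within its own list, and since the lists differ in length it shows no change between lists. The COL1A1 peaks had ranks of 64.3% and 45.1% in A673 and of 47.3% and 47.5% in CHLA10.

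COL5A3, a minor chain of type V collagen, carried more active marks in A673. Its H3K4me3 peaks at the start had ranks of 68.9% and 81.2% in A673 and of 12.2% in CHLA10 replicate 2, with none in replicate 1. H3K4me1 covered the same end in both A673 libraries, at a fold of 14.2 and 18.4, and in neither CHLA10 library. H3K27ac covered 21.3% and 19.1% of the gene in A673 and 0% and 2.25% in CHLA10, the highest H3K27ac share of any collagen gene in A673. Its strongest H3K27ac peaks had ranks of 97.9% and 99.8% in A673, at a fold of 13.7 and 18.8, and began inside the gene near the start (chr19:10005668-10009468 in replicate 1). The start region itself spans chr19:10007660-10011299 and holds the listed transcription start.

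COL3A1, the chain of type III collagen, carried wider H3K4me3 and H3K27ac in CHLA10 and wider H3K4me1 in A673. H3K4me3 was called over its lower boundary in every library, at ranks of 24.2% and 35.7% in A673 and of 78.5% and 87.5% in CHLA10. The CHLA10 peaks were 6764 and 5134 bp long, and the A673 peaks 2098 and 2243 bp. H3K27ac at this end had ranks of 98.2% and 95.8% in the CHLA10 libraries and 84.7% in A673 replicate 1, with no peak there in A673 replicate 2. Over the whole gene H3K27ac covered 15.4% and 13.5% in CHLA10 and 2.58% and 2.68% in A673, and the lines do not overlap. H3K4me1 covered 11.0% and 12.7% in A673 and 2.41% and 1.48% in CHLA10, the reverse order. That order was common: at 24 collagen genes (57.1%) and 36.5% of all genes, both A673 libraries had more H3K4me1 cover than both CHLA10 libraries. The opposite held at 0 collagen genes and 1.26% of all genes. H3K27me3 covered none of COL3A1 in any library.

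COL5A2, a chain of type V collagen that RefSeq draws over 409 kb, is the neighbour of COL3A1, 19.2 kb away. Its upper boundary lies 0.362 kb from WDR75, a gene of ribosome production, so the H3K4me3 peak there (fold 11.3 and 13.5 in A673, 74.5 and 54.6 in CHLA10) and the CHLA10 H3K27ac peak cannot be assigned to either gene. Away from that end, an H3K4me3 region inside COL5A2 (chr2:189176037-189180507, 146 kb from its lower boundary) was called in every library, at ranks of 61.5% and 87.6% in A673 and 91.4% and 83.6% in CHLA10. H3K27ac peaks over that stretch were called in each CHLA10 library, at folds of 10.1, 7.03 and 6.22 in replicate 1 and of 9.21 and 7.37 in replicate 2, and in no A673 library. COL5A2 has no listed transcription start here, so whether that H3K4me3 region holds one is not known from these data. An H3K27ac region called in every library (chr2:189208480-189212339) had ranks of 99.0% and 94.8% in A673 and of 99.1% and 98.1% in CHLA10, where it was the highest-ranked H3K27ac peak of any collagen gene in both libraries. Over the whole gene H3K27ac covered 5.33% and 2.44% in A673 and 7.76% and 6.98% in CHLA10. COL5A2 held 10 of the 27 H3K27ac regions of collagen genes that were called in CHLA10 only, and 1 of the 12 called in A673 only. It also held 4 of the 7 H3K4me3 regions called in CHLA10 only.

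**Figure D3:**
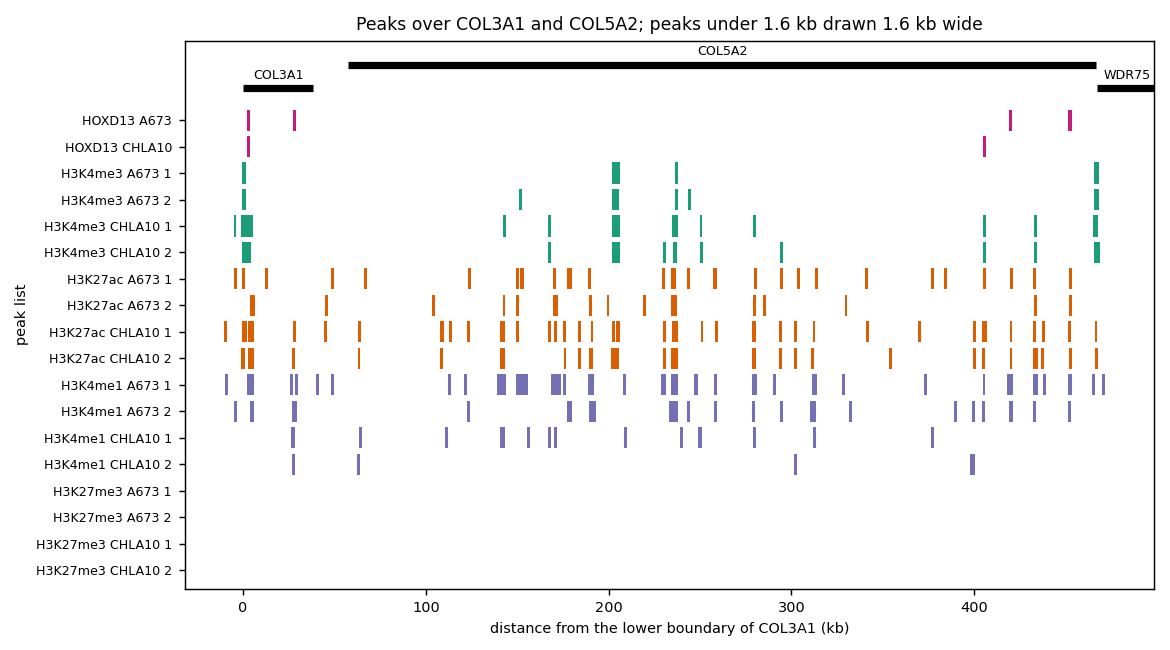
Peaks of the 18 lists over COL3A1 and COL5A2, by distance in kb from the lower boundary of COL3A1, with 1 row per list and gene spans as black bars. The CHLA10 H3K4me3 bars over COL3A1 are longer than the A673 bars (6764 and 5134 bp against 2098 and 2243 bp), the H3K27me3 rows are empty, and the H3K4me3 bar at the right end is shared by COL5A2 and WDR75.

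The other fibrillar genes differed between the lines inside the gene, or carried H3K27me3. COL5A1, the main α1 chain of type V collagen, had H3K4me3 in every library, at ranks of 78.0% and 60.0% in A673 and of 83.9% and 90.2% in CHLA10. H3K27ac covered 0.631% and 1.35% of COL5A1 in A673 and 2.73% and 3.25% in CHLA10, with its strongest CHLA10 peaks (ranks 89.6% and 95.5%) about 65.4 kb inside the gene, in a region called in CHLA10 only. COL27A1 had H3K4me3 at its end in both CHLA10 libraries (ranks 61.7% and 64.6%) and in A673 replicate 1 (33.8%). In A673 replicate 2 an H3K4me3 peak lay within 1 kb of its listed start only. COL11A1, a cartilage fibril chain, had no peak of any mark at its ends, but an H3K4me3 region 1.01 kb from its listed start was called in every library, at ranks from 31.4% to 42.3%. COL11A2 had H3K4me3 at its lower boundary in CHLA10 replicate 1 and H3K27ac at its upper boundary in A673 replicate 1.

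COL2A1, the main collagen of cartilage, carried H3K27me3 at its upper boundary in A673, with folds of 6.60 and 5.57 and ranks of 98.9% and 97.7%, and no H3K27me3 peak there in CHLA10. Inside the gene H3K27me3 covered 21.3% and 23.7% in A673 and 8.19% and 7.34% in CHLA10. An H3K4me3 region 4.35 kb inside that boundary of COL2A1 was called in every library, at ranks from 49.4% to 68.9%. In both A673 libraries its H3K4me3 peak overlapped the H3K27me3 peak of that boundary, so H3K4me3 is missing there only by the 1 kb window. COL24A1 had H3K27me3 at its end in A673 only, with folds of 3.79 and 4.35, no H3K4me3 at its ends, and coverage of 8.40% and 13.9% against 0% in both CHLA10 libraries.

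Among the 7 network genes, COL4A1 and COL4A2, which encode the chains of most basement membranes, lie head to head 126 bp apart and share 1 H3K4me3 peak of 3739 to 4823 bp in every library. Its ranks were 65.3% and 68.4% in A673 and 62.8% and 57.1% in CHLA10. COL4A3 and COL4A4, which encode chains of the kidney and lung basement membrane, lie head to head 135 bp apart and also share 1 H3K4me3 peak in every library, at ranks of 34.4% and 42.7% in A673 and 44.2% and 37.9% in CHLA10. Over the same start, H3K27me3 was called in both A673 libraries, at folds of 4.22 and 3.91, and in neither CHLA10 library. Inside COL4A4, CHLA10 had 2 H3K27ac regions that A673 lacked, the stronger at ranks of 91.3% and 87.7%, and COL4A3 had 1. The gene RHBDD1 overlaps COL4A4, and whether the COL4A4 regions lie in the overlap was not examined. COL8A1, a collagen of vessel walls, had H3K4me3 at ranks of 55.4% and 53.0% in A673 and 40.3% and 2.58% in CHLA10, and H3K4me1 at that end in A673 only. COL8A2 had H3K27ac at both ends in both A673 libraries. Its highest-ranked peak there lay at the start in replicate 1 (80.5%) and at the other end in replicate 2 (72.3%). CHLA10 replicate 1 had H3K27ac at that other end only, and H3K4me1 lay there in A673 only (folds 10.5 and 8.24). COL8A2 had no H3K4me3, and ADPRS shares its end window. COL10A1, the collagen of hypertrophic cartilage, had no peak of any mark at its ends.

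COL4A1 and COL4A2 lie on chromosome 13, where the CHLA10 lists were thin for some marks. There, 0 of 338 genes had H3K4me1 at an end in both CHLA10 libraries, against 30 in A673, and 9 (2.66%) had H3K27me3, against 38 (11.2%) in A673. For H3K4me3 the shares were 66.3% in CHLA10 and 70.1% in A673. The absence of CHLA10 H3K4me1 at COL4A2, which held 6 regions with H3K4me1 in both A673 libraries and neither CHLA10 library, stands beside those values, and their part in it was not tested.

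Of the 10 FACIT genes, 4 had H3K4me3 at an end in A673 and 4 in CHLA10, and COL12A1, COL14A1 and COL19A1 had it in both lines. COL12A1 had it at ranks of 55.4% and 63.5% in A673 and 52.8% and 51.5% in CHLA10, with an H3K27me3 peak at the same end in every library at folds from 3.62 to 4.14. COL14A1 also had both marks in every library, with H3K4me3 ranks of 9.35% and 9.65% in A673 and of 40.2% and 34.1% in CHLA10. COL19A1 had H3K4me3 at its start in every library, at ranks from 52.5% to 61.2%. Its other end lies 2.59 kb from COL9A1, a chain of cartilage type IX collagen, and both ends fell under 1 H3K27me3 peak in A673, at folds of 5.53 and 4.71, with none at that junction in CHLA10. COL16A1 had H3K4me3 in both A673 libraries (folds 8.13 and 6.65) and in CHLA10 replicate 2 (3.84), with H3K4me1 at that end in A673 only, at folds of 14.2 and 15.8. Inside COL16A1 both CHLA10 libraries had an H3K4me1 peak too, at ranks of 96.9% and 74.7%. COL9A3 was the only collagen gene with H3K4me1 at an end in every library, and it had H3K27ac there in every library too. Its end window is shared with TCFL5, so these peaks cannot be assigned to COL9A3 alone. COL9A2 had 1 H3K4me1 peak, in A673 replicate 1, and no peak of the other marks at its ends.

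COL21A1, a FACIT gene of 338 kb, had no peak at its outer boundaries. An H3K4me3 region (chr6:56244745-56248288) that holds the listed start at chr6:56247580 was called in A673 only, at a fold of 15.9 and 53.1 and ranks of 43.7% and 75.4%. It was 1 of 3 H3K4me3 regions of collagen genes called in A673 only. The 2 other listed starts of COL21A1 had no H3K4me3 in any library. At 1 of them (window chr6:56091663-56091912) H3K27ac was called in both libraries of each line. The strongest H3K27ac peaks of COL21A1 in A673 had ranks of 99.8% and 97.0%, the highest of any collagen gene in replicate 1.

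COL20A1 and COL22A1 were the FACIT genes with H3K27me3 in CHLA10 only. H3K27me3 covered 62.9% and 54.2% of COL20A1 in CHLA10 and 0% in both A673 libraries, the largest covered share in CHLA10. It covered 19.2% and 20.5% of COL22A1 in CHLA10 and 0% in A673. There, 11 separate regions were called in both CHLA10 libraries and neither A673 library, and 9 further regions did not meet that rule. COL14A1, on the same chromosome as COL22A1, had 17.9% and 17.1% covered in CHLA10 and 2.19% and 3.95% in A673. H3K27me3 covered 9.59 and 10.2 Mb of chromosome 8, where both genes lie, in CHLA10 and 4.84 and 6.93 Mb in A673. At gene ends of that chromosome the order was the reverse, with H3K27me3 at 78 of 714 genes (10.9%) in CHLA10 and 90 (12.6%) in A673. The part of that chromosome-wide difference in the values of COL14A1 and COL22A1 was not tested.

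The 5 beaded filament genes fell into a pair with H3K4me3 alone and 3 genes with H3K27me3. COL6A1 and COL6A2, the core chains of type VI collagen, had H3K4me3 and no H3K27me3 in every library, COL6A1 at ranks of 54.1% and 59.3% in A673 and 63.9% and 40.8% in CHLA10. COL6A3, the third core chain, had H3K27me3 over 41.7% and 64.0% of its span in A673 and over 0% in both CHLA10 libraries, and H3K4me3 at its ends in no library. COL6A5 and COL6A6, further type VI chains that lie 31.9 kb apart, had H3K27me3 at their ends in every library. COL6A5 had it at ranks of 99.5% and 99.4% in A673 and 46.4% and 90.8% in CHLA10, and carried short H3K4me3 peaks (431 and 190 bp) in A673 only. COL6A6 had H3K4me3 in both A673 libraries (ranks 14.8% and 24.2%) and in CHLA10 replicate 2 (2.44%).

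Among the 4 transmembrane genes, COL13A1, COL23A1 and COL25A1 had H3K4me3 at an end in every library. COL13A1, found at cell junctions, had it at ranks of 84.1% and 81.0% in A673 and of 58.7% and 54.4% in CHLA10. COL13A1 also held a second H3K4me3 region in every library, 132 kb inside its lower boundary, at ranks of 70.2% and 71.8% in A673 and 36.3% and 21.2% in CHLA10. COL25A1, with the CpG-rich promoter printed above, had it at ranks from 40.5% to 52.6%. COL17A1 had no H3K4me3 at its ends, H3K27ac in A673 replicate 2 alone and H3K4me1 in A673 replicate 1 alone. The multiplexin gene COL15A1 carried H3K4me3 and H3K27me3 in every library, the latter at ranks of 97.6% and 98.2% in A673 and 86.5% and 71.1% in CHLA10. COL18A1, the source of endostatin, had H3K4me3 in both CHLA10 libraries and in A673 replicate 2, at ranks of 18.1%, 31.9% and 15.6%. Of the other genes, COL26A1 had H3K4me3 in every library, at ranks from 26.6% to 48.2%. COL7A1, the anchoring fibril of skin, had it in CHLA10 replicate 2 alone, with H3K4me1 in both A673 libraries, and shares its end window with UCN2 and PFKFB4. COL28A1 had no H3K4me3 at its ends.

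The share of a gene covered by H3K27me3 was higher in A673 at more collagen genes than in CHLA10. In 14 of the 42 (33.3%) both A673 libraries covered a larger share of the gene than both CHLA10 libraries, beside 9.10% of all genes. The reverse held for 4 (9.52%), COL14A1, COL17A1, COL20A1 and COL22A1, beside 7.83%. A gene without a peak in any library counted for neither line, and collagen genes are long (median 133 kb against 24.5 kb). The part of gene length in these shares was not tested. In A673 the largest mean shares were those of COL9A1, with 41.5% and 70.6%, then COL6A3, COL6A5 (21.9% and 42.1%), COL6A6 (21.4% and 34.4%) and COL2A1. In CHLA10 COL9A1 had 17.3% and 10.3%, COL6A5 10.3% and 12.4%, and COL6A6 9.08% and 10.1%. Among the 14, replicate 2 covered more than replicate 1 in A673 at every gene except COL11A1 and COL19A1. The whole H3K27me3 lists covered 140 and 190 Mb in A673 and 181 and 191 Mb in CHLA10. For H3K27ac both shares were above those of all genes. The covered share was higher in both A673 libraries at 16 collagen genes (38.1%, beside 18.3%) and in both CHLA10 libraries at 11 (26.2%, beside 15.5%). The latter were COL1A2, COL3A1, COL4A4, COL5A1, COL5A2, COL8A1, COL10A1, COL14A1, COL15A1, COL24A1 and COL26A1. RHBDD1 overlaps COL4A4 and NT5DC1 overlaps COL10A1, so the shares of these genes cannot be assigned to the collagen gene alone.

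**Figure D4:**
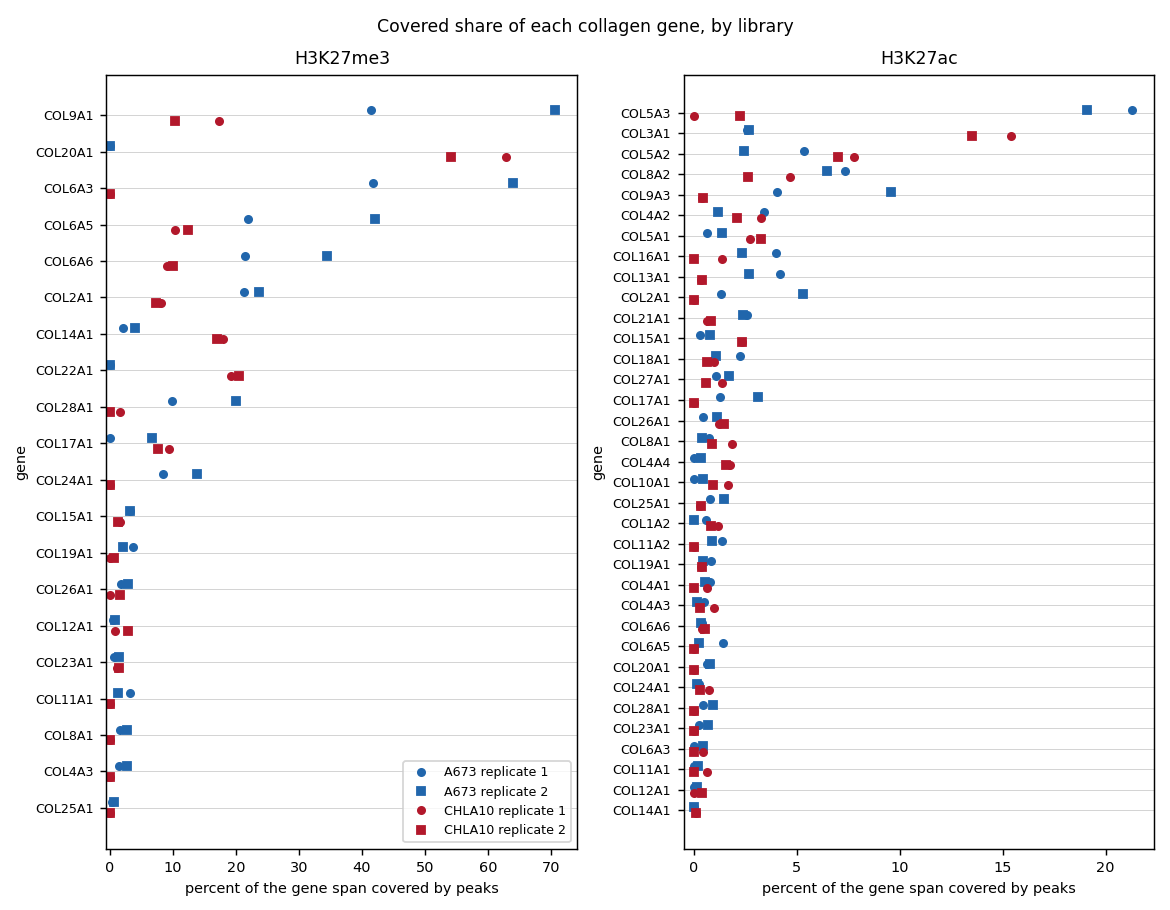
Percent of the gene span covered by H3K27me3 peaks (left) and H3K27ac peaks (right) in each library, for collagen genes covered in at least 2 libraries, with A673 in blue, CHLA10 in red, circles for replicate 1 and squares for replicate 2. COL6A3 lies at 41.7% and 64.0% in A673 and at 0% in CHLA10, COL20A1 lies the other way round, and for H3K27ac COL5A3 is highest in A673 and COL3A1 in CHLA10.

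When the peaks of the 4 libraries of a mark were merged into regions, those in or within 1 kb of collagen genes were set beside those of all genes. Of 62 H3K4me3 regions, 3 (4.84%) were called in the A673 libraries alone and 7 (11.3%) in those of CHLA10 alone, beside 4.13% and 7.51% at all genes. Of 354 H3K27ac regions, 12 (3.39%) and 27 (7.63%) were, beside 4.66% and 8.55%, and of 430 H3K4me1 regions, 71 (16.5%) and 8 (1.86%), beside 15.1% and 1.33%. Of 124 H3K27me3 regions, A673 alone held 25 (20.2%) and CHLA10 alone 18 (14.5%), beside 14.3% and 16.3%. Of those 18 regions, 11 lay in COL22A1, 4 in COL20A1 and 3 in COL14A1.

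HOXD13 peaks lay in or within 100 kb of 24 collagen genes in A673 (57.1%, beside 39.6% of all genes), of 9 in CHLA10 (21.4%, beside 12.0%) and of 8 in both lines (19.0%, beside 8.44%). At 50 kb the CHLA10 count was 3, and 3 genes had a peak in both lines. The 8 were COL3A1, COL5A2, COL5A3, COL8A1, COL9A2, COL11A1, COL21A1 and COL25A1. Inside the gene, A673 peaks were found in 11 (26.2%, beside 11.4% of all genes) and CHLA10 peaks in 3 (7.14%, beside 3.76%). Within 10 kb they were found at 15 (35.7%, beside 15.5%) and 3 (7.14%, beside 4.65%). Since the collagen genes are long, peaks were also counted per Mb. The collagen genes with 100 kb on each side held 4.21 A673 peaks per Mb, beside 2.81 for all protein-coding genes, and 0.727 CHLA10 peaks per Mb, beside 0.748. Per Mb of gene span alone the A673 values were 4.83 and 2.91, and the CHLA10 values 0.468 and 0.808. The A673 density was higher at collagen genes than at all genes, and the CHLA10 density was not. Of the 31 A673 peaks inside collagen genes, 9 lay in COL21A1 alone, so the A673 density rests in part on that gene. The cells of the HOXD13 libraries and those of the mark libraries carry different labels. In all, 58 A673 peaks and 10 CHLA10 peaks were counted, and 3 of each overlapped a peak of the other line.

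**Figure D5:**
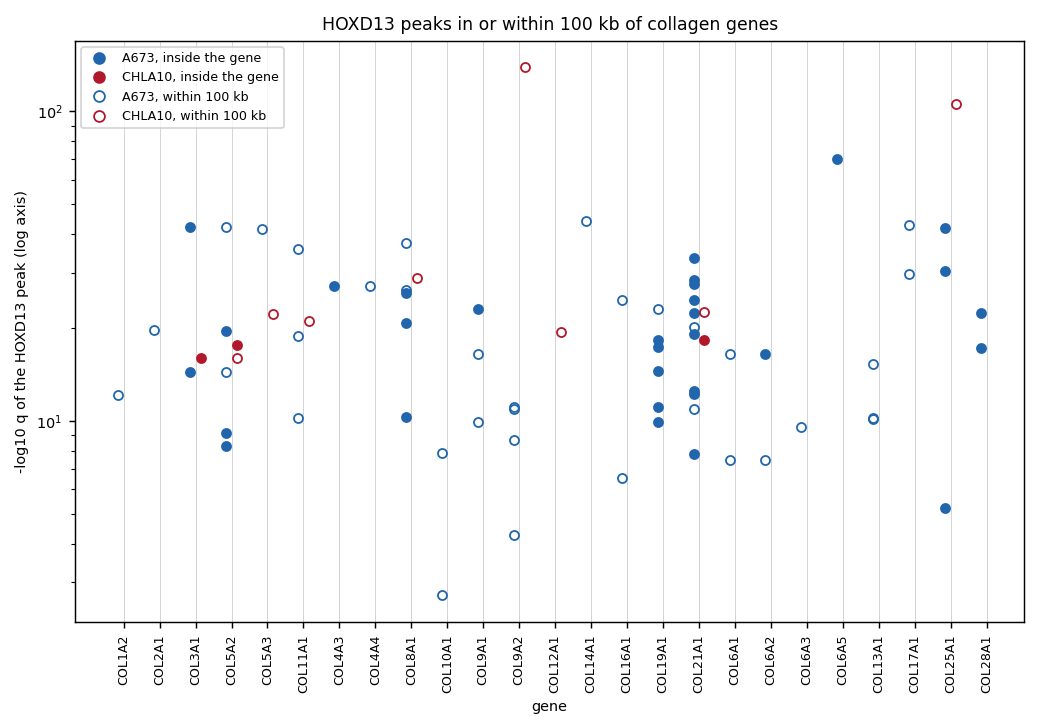
The −log10 q value (log axis) of each HOXD13 peak in (filled) or within 100 kb of (open) a collagen gene, with A673 in blue and CHLA10 in red and the genes on the horizontal axis by structural class. COL6A5 has the highest A673 value (70.4), COL9A2 and COL25A1 have the highest CHLA10 values (139 and 106), and COL21A1 holds the most peaks.

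The A673 peaks of the highest significance near collagen genes were of several kinds. The highest was inside COL6A5, 8.75 kb from its lower boundary (chr3:130354418-130354675), at a fold of 20.3 and a −log10 q of 70.4, and CHLA10 had no HOXD13 peak within 100 kb of that gene. The next was 80.6 kb from COL14A1 (−log10 q 44.3) and nearest to MTBP, so it is near COL14A1 only by the distance rule. COL17A1 had a peak of 42.8, 51.5 kb away and nearest to SLK, and the peak shown above, 0.186 kb before its start (chr10:104086067-104086166), with a fold of 16.9 and a −log10 q of 29.7. COL3A1 had a peak of 42.2 inside the gene, 10.4 kb from its upper boundary, where CHLA10 had H3K27ac in both libraries and A673 in neither, and COL25A1, a collagen of neurons and muscle, had a peak of 41.9 deep inside, 230 kb from a boundary. The A673 peak near COL5A3 (41.8) lay 91.9 kb away and nearest to OLFM2.

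COL21A1 held the largest number of HOXD13 peaks, 11 in A673, of which 9 were inside the gene. Of these, 5 lay within 44.6 kb of its lower boundary, at −log10 q values from 12.5 to 28.4, and the highest, at 33.5, lay 167 kb inside. In CHLA10 it had 2 peaks, 1 inside at 18.3 and 1 at 22.5, 7.90 kb outside the gene. No CHLA10 peak overlapped an A673 peak there. COL19A1 had 6 A673 peaks, 5 of them inside, and COL8A1 had 5, of which 3 were inside and at −log10 q values from 10.3 to 25.9. The highest A673 peak near COL8A1, at 37.4, lay 44.1 kb outside it. Neither COL19A1 nor COL28A1, with 2 A673 peaks inside, had a CHLA10 peak within 100 kb.

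The CHLA10 peaks of the highest significance lay outside the collagen genes. The highest (−log10 q 139, fold 33.9) lay 62.6 kb from COL9A2, nearest to SMAP2, and overlapped an A673 peak of 4.26. The second (106, fold 45.9) lay 78.8 kb from COL25A1 and nearest to SEC24B. The others lay 60.2 kb from COL8A1 (28.9), 7.90 kb from COL21A1 (22.5) and 69.5 kb from COL5A3 (22.2). At COL3A1 the lines shared a peak inside the gene, 2.17 kb from its lower boundary, at a −log10 q of 14.4 in A673 (chr2:188976542-188976855) and 15.9 in CHLA10. It overlapped H3K4me3 in each CHLA10 library, and no A673 H3K4me3 peak. Inside COL5A2, A673 had 3 peaks, at 8.28, 19.5 and 9.15, and CHLA10 had 1, at 17.6, and none of them overlapped across the lines. COL11A1 had its highest A673 peak, at 36.0, 51.5 kb away. There the lines shared a peak 72.1 kb away, at 10.2 in A673 and 21.0 in CHLA10. COL12A1 was the only collagen gene with a CHLA10 peak and no A673 peak within 100 kb, at 19.4 and 61.4 kb away.

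The HOXD13 peaks near collagen genes were overlapped with the histone marks of the same line. Of the 58 A673 peaks, 4 (6.90%, exact Clopper-Pearson 95% interval 1.91 to 16.7%) overlapped H3K4me3 in both A673 libraries, beside 7.56% of all 7047. For H3K27ac it was 4 (6.90%, beside 9.71%), and for H3K4me1 12 (20.7%, 11.2 to 33.4%, beside 25.0%). None overlapped H3K27me3 in both libraries, which allows a share of up to 5.17% by a limit of 3 counts and 6.16% by the exact interval, beside 2.54% of all A673 peaks. Of the 10 CHLA10 peaks, 2 overlapped H3K4me3 (20.0%, beside 6.46% of 2060), 3 H3K27ac (30.0%, beside 36.2%) and 1 H3K4me1 (10.0%, beside 2.86%). None overlapped H3K27me3, beside 0.146%, and with 10 peaks a count of 0 allows a share of up to 30.0% by the limit of 3 counts and 30.8% by the exact interval. The intervals cover counting error only. Of the A673 peaks, 19.0% overlapped H3K27ac and 43.1% H3K4me1 when A673 replicate 2 was left out. With A673 replicate 1 left out, 3.45% overlapped H3K27me3, among them the peak inside COL6A5.

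The genes that process collagen were mostly marked by H3K4me3, which is at an end of 64.9% of all genes in A673 and 64.4% in CHLA10. Of 21 genes of intracellular processing, such as the prolyl and lysyl hydroxylases and the chaperone SERPINH1, 20 had H3K4me3 at an end in both A673 libraries and 21 in both CHLA10 libraries. Of 13 genes that trim or crosslink collagen outside the cell, 12 had it in each line. Of 9 collagen receptors 5 had it in each line, and of 8 genes of collagen degradation 4 had it in A673 and 3 in CHLA10. Over these 51 genes the count was 41 in each line, and 1 gene had it in 1 line only, MMP1, an interstitial collagenase, in A673 (1.98% of all genes). For H3K27ac, PLOD1, a lysyl hydroxylase, and ADAMTS14, a procollagen protease, were marked in A673 only (2.31% of all genes). LOX, the lysyl oxidase that crosslinks collagen, was marked in CHLA10 only (8.50% of all genes). For H3K27me3, TMEM38B and TLL2 were marked in A673 only (4.00%) and PCOLCE2, an enhancer of procollagen cleavage, in CHLA10 only (2.67%). For H3K4me1, CREB3L1, DDR1, CTSK and MRC2 were marked in A673 only (7.96%) and CRTAP in CHLA10 only (0.272%). HOXD13 peaks lay within 100 kb of 9 of the 21 intracellular processing genes in A673 and 4 in CHLA10, of 7 and 3 of the 13 extracellular ones, of 5 and 4 of the 9 receptors, and of 4 and 2 of the 8 degradation genes, beside 39.6% and 12.0% of all genes.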

How the data were processed

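Peaks of 18 CUT&RUN libraries (A673 and CHLA10, HOXD13 and 4 histone marks) were read from the deposited lists, in hg38. The submitters' processing notes name Bowtie2, MACS2, SEACR 1.2 and bedtools without roles. Per the peak names in the deposited files, narrow peaks were called against IgG and H3K27me3 peaks were broad, without a control. The fold enrichment (a ratio), the −log10 q value and the score of each peak are the authors' deposited values. Gaps in the peak numbers show that each list holds part of the called peaks, by a criterion not given in the sources used here. The labels do not say whether replicates came from separate cultures.

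Overlaps of at least 1 bp were computed with Python 3.11.15, numpy 2.4.6, pandas 2.3.3 and scipy 1.17.1 (figures with matplotlib 3.10.9) and tested on simulated data. Gene spans and promoter windows came from RefSeq, GRCh38.p14. The members and gene lists were chosen with earlier results of these data known. Values per library were given for genes marked in 1 line only, with HOXD13 peaks in both lines, among the 5 highest per line for HOXD13, H3K27me3 coverage or H3K27ac rank, or neighbouring another collagen gene; other values were chosen after they were seen. The result of 1 marker gene is not reported here. Other windows, distances, thresholds and single libraries were tried as alternatives.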

Additional observations from a re-analysis of the deposited data

How the results depend on the processing

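Of 247 values under alternatives of 43 results, 178 stayed within 1.5 times the reported count (or the interval of a share) and 69 did not; the cause was not tested beyond what the settings themselves set. Keeping only the 50% of peaks with the highest −log10 q, H3K4me3 at gene ends fell to 10 genes in each line (2 in A673 only, 3 in CHLA10 only). H3K27ac then marked 2 in CHLA10 (1 in CHLA10 only) and H3K27me3 4 (1 in CHLA10 only). Inside the gene, the upper 50% gave 10 and 11 for H3K4me3, and in CHLA10 13 for H3K27ac, 14 for H3K4me1 and 6 for H3K27me3. HOXD13 then lay near 3 genes in CHLA10 and 2 in both lines. A window of 0.5 kb gave 3 genes with H3K4me3 in A673 only, 2 in CHLA10 only, 1 with H3K27ac in CHLA10 only and 3 with H3K4me1 in A673 only. A window of 2.5 kb gave H3K27ac at 6 genes in A673 (2 in A673 only) and H3K4me1 at 12 in A673 (8 in A673 only) and 2 in CHLA10. Listed starts alone, known for 30 genes, gave in CHLA10 15 for H3K4me3, 1 for H3K27ac, 0 for H3K4me1 and 3 for H3K27me3, and 3 for H3K4me1 in A673. On listed starts, H3K27ac marked 1 gene in A673 only and 0 in CHLA10 only, H3K4me1 3 in A673 only, and H3K27me3 0 in CHLA10 only. With equal peak numbers, H3K4me3 marked 4 in A673 only, and H3K4me1 lay inside 19 genes in A673. An overlap of 200 bp gave 1 gene with H3K4me3 in CHLA10 only. With at least 10% of the gene covered, the counts inside the gene, A673 then CHLA10, were 1 and 2 for H3K4me3, 1 and 1 for H3K27ac, 3 and 0 for H3K4me1, and 5 and 5 for H3K27me3. HOXD13 lay within 10 kb of 15 genes in A673, 3 in CHLA10 and 3 in both; within 50 kb of 3 in CHLA10 and 3 in both; and, by nearest gene boundary only, at 4 in CHLA10 and 4 in both. With 50% of the HOXD13 peak covered, 0% of CHLA10 peaks held H3K4me1.

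Leaving out each library in turn gave, at gene ends, H3K27ac at 6 to 9 genes in A673 and 4 to 8 in CHLA10, and H3K4me1 at 6 to 14 in A673 and 1 to 3 in CHLA10. For marks in 1 line only it gave H3K4me3 at 1 to 4 in A673 and 1 to 3 in CHLA10, H3K27ac at 0 to 7 in A673, and H3K4me1 at 5 to 13 in A673 and 0 to 2 in CHLA10. A673 HOXD13 peaks held H3K27ac in 15.5 to 19.0% and H3K4me1 in 32.8 to 43.1%. The counts of H3K27me3 at gene ends in A673 and in A673 only stayed within 1.5 times under every alternative run. On listed starts alone they fell to 8 from 12 and to 4 from 6, exactly at the lower limit of that range. No paired analysis was possible because no result comes from a test: the lists hold no counts. The read depth is unknown, so a missing peak does not show that the mark was absent.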
